A study of Mus musculus and Homo sapiens with 59 samples.

Results

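Ccl2 and Ccl7 are neighbouring mouse genes that encode the monocyte chemokines also known as MCP-1 and MCP-3. They were taken by symbol, as 2 of the 19407 rows of the mouse expression table, and CCL2 as 1 of the 22192 rows of the human one, while CCL7 was not analysed here. Both chemokines are small secreted proteins that bind the receptor CCR2 on monocytes, and draw these cells out of the marrow and into injured or inflamed tissue. CCL7 also binds other CC chemokine receptors. Fibroblasts and many tumour cells transcribe both genes when NF-kB is activated, and proteins of the Zfp36 family speed the decay of many cytokine and chemokine RNAs.

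In mm10 both genes lie on the plus strand of chromosome 11. Ccl2 (ENSMUSG00000035385.5) spans positions 82035571 to 82037453 and Ccl7 (ENSMUSG00000035373.2) positions 82045712 to 82047525, with 8258 bases between them. Each has 3 exons, and their coding transcripts are of nearly the same length, 813 and 801 bases. Ccl11, Ccl12 and Ccl8 follow on the same strand.

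The data are TPM (transcript abundance scaled to transcript length and to a common library total) from polyadenylated RNA of 51 mouse and 8 human libraries. Of the mouse libraries, 35 came from the fibroblast line NIH3T3 and 16 from the lung carcinoma line LLC. Parental cells carried no construct, per the labels. MLKL cells carried hMLKL1–181-2Fv, the amino-terminal part (residues 1 to 181) of the necroptosis protein MLKL joined to a dimerizing domain, and were given the dimerizer AP20187 at 100 nM for 1 h. GSDMD cells carried mGSDMD1-276-HBD, the amino-terminal part (residues 1 to 276) of the pyroptosis protein gasdermin D joined to a hormone-binding domain, and were given 4OHT, the active metabolite of tamoxifen, at 50 nM for 2.5 h. Parental NIH3T3 cells given AP20187 and parental LLC cells given 4OHT served as controls for these agents. Parental NIH3T3 cells given 4OHT and parental LLC cells given AP20187 were not analysed here. Cells labelled parental were also treated with digitonin, a detergent that complexes cholesterol in membranes. It was given to both mouse lines at 55 µg/mL for 3 h, and to the human carcinoma lines HT29 and BxPC3 at 40 µg/mL for 2 h. The NIH3T3 MLKL cells came in 5 further sets: kept in calcium-free medium, transfected with siCTR (control) or siPKC siRNA, and p65ko (knocked out for p65) or noko (its control). Cells were untreated or treated in DMEM except for the calcium-free set. Digitonin had its own untreated libraries, called the digitonin set together with the treated ones, so each mouse line has a pair of untreated sets whose labels name no construct. Each group held 2 libraries, except siPKC cells given AP20187 with 1. The titles of both LLC MLKL libraries given AP20187 carry the same replicate number, and one of them shortens the name of the construct, so whether they are separate replicates rests on the other labels. Over genes, the log2 values of this pair differed with an SD of 0.257, within the 0.242 to 0.313 of the LLC pairs. Whether the replicates are separate cultures is not in the labels, and p-values therefore reflect the spread of these libraries alone, which may be technical.

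All 6 fibroblast markers followed reached 1 TPM in every NIH3T3 library. Of these, Col3a1 and Vim also reached 1 TPM in every LLC library, and the median of Col3a1 was higher in LLC than in NIH3T3. Col1a1, Col1a2 and Thy1 stayed under 1 TPM in LLC, and Pdgfrb reached it in only some LLC libraries. In LLC the epithelial markers Epcam and Cdh1 stayed under 1 TPM, although Krt8 and Krt18 were present. The pan-leukocyte gene Ptprc was at most 0.159 TPM in NIH3T3 and 0.0208 TPM in LLC libraries, and the macrophage gene Adgre1 at most 0.0310 and 0 TPM. Cd68, another macrophage and monocyte marker followed, lay between 5.13 and 19.3 TPM in NIH3T3 and between 2.08 and 8.66 TPM in LLC. Rela, the gene of p65, was 13.8 ± 0.343 TPM in untreated p65ko cells and 49.4 ± 0.371 in noko cells (SD, n = 2). Prkca, a protein kinase C gene, was 7.75 ± 0.419 TPM in untreated siPKC cells and 31.8 ± 1.24 in siCTR cells, while Prkcd was higher in siPKC cells (39.1 ± 0.730 against 25.7 ± 2.37). Gsdmd was 1182 ± 67.7 TPM in untreated NIH3T3 GSDMD cells and 5.79 ± 0.493 in parental ones. In LLC it was 376 ± 0.755 TPM in untreated GSDMD cells and 22.6 TPM in each untreated parental library.

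The LLC digitonin set went against its labels on this gene. Gsdmd stood at 333 and 337 TPM in its untreated libraries and at 326 and 336 TPM in those given digitonin, near the level of LLC GSDMD cells and far above that of parental LLC cells. In the NIH3T3 digitonin set Gsdmd was 13.6 ± 0.501 TPM untreated, above parental cells and far below GSDMD cells. Untreated NIH3T3 MLKL cells held a similar level, 11.7 ± 1.00 TPM, and whether the NIH3T3 digitonin set carried a construct was not tested. The 4 LLC libraries are therefore named below as labelled, and in that set the construct and the agent cannot be told apart when it is compared with other LLC cells. The Gsdmd levels of its untreated and treated libraries overlapped. Leaving these 4 libraries out of the fit changed no call or direction of Ccl2 or Ccl7 among the other LLC comparisons and the line comparisons that do not use them.

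Changes below are differences of log2(TPM + 1), tested with limma over all genes of a line and adjusted by Benjamini-Hochberg within each comparison, with a threshold of 0.05. Beside the changes of Ccl2 and Ccl7 stands the share of all tested genes that passed the same test. The median change of all genes lay below 0 by more than 0.1 in 6 treated groups, at -0.19 in siCTR, -0.22 in noko, -0.14 in siPKC and -0.19 in p65ko cells, -0.29 in NIH3T3 GSDMD and -0.25 in LLC GSDMD cells.

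Untreated cells of both mouse lines already held both transcripts, Ccl2 at the higher level. In parental NIH3T3 cells Ccl2 stood at 237 and 233 TPM and Ccl7 at 49.6 and 48.0 TPM. Parental LLC cells held less of both, with Ccl2 at 133 and 138 TPM and Ccl7 at 8.71 and 8.21 TPM. The resting difference of LLC from NIH3T3 was -0.79 (SE 0.048, adjusted p = 3.38e-15) for Ccl2 and -2.40 (SE 0.095, adjusted p = 8.38e-20) for Ccl7, in a comparison where 80.1% of genes passed.

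Resting levels also differed between cells of one line. Untreated NIH3T3 MLKL cells held Ccl2 at 136 and 139.5 TPM, below both parental libraries (difference -0.76, SE 0.051, adjusted p = 7.42e-11), and Ccl7 at 41.2 and 41.3 TPM (-0.24, adjusted p = 0.0111), where 51.7% of genes passed. Untreated NIH3T3 GSDMD cells had Ccl2 at 200.5 and 235 TPM, overlapping the parental range (-0.11, adjusted p = 0.0654), and Ccl7 at 42.4 and 40.03 TPM (-0.24, adjusted p = 0.0100), where 55.2% passed. In untreated LLC MLKL cells, Ccl2 was 172 and 181 TPM (0.37, adjusted p = 9.77e-06) and Ccl7 was 32.5 and 24.4 TPM (1.62, adjusted p = 4.09e-07), both above parental LLC, where 57.7% passed. Untreated LLC GSDMD cells had the lowest Ccl2 of the 26 mouse groups, at 79.1 and 80.3 TPM (-0.76, adjusted p = 1.47e-08), with Ccl7 at 9.61 and 9.003 TPM (0.12, adjusted p = 0.375), where 61.7% passed.

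The pair of untreated sets labelled parental did not match either. In LLC the libraries labelled parental of the digitonin set held Ccl2 at 206 and 214 TPM and Ccl7 at 34.2 and 30.2 TPM, all above the other untreated parental libraries. These differences were 0.63 (SE 0.040, adjusted p = 6.60e-08) for Ccl2 and 1.81 (SE 0.12, adjusted p = 7.19e-08) for Ccl7, the latter a 3.81-fold ratio of mean TPM, where 66.7% of genes passed. In NIH3T3 the digitonin set held Ccl2 at 206 and 199 TPM (-0.21, adjusted p = 0.000682, turning to 0.17 after each library was centred on its median) and Ccl7 at 57.4 and 58.5 TPM (0.24, adjusted p = 0.00552), where 76.1% passed. The LLC sets also differed in Gsdmd, as given above, so their comparison is not one of like cells. The NIH3T3 sets differed in Gsdmd as well, at lower levels, and whether those cells are alike was not tested.

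**Figure D1:**
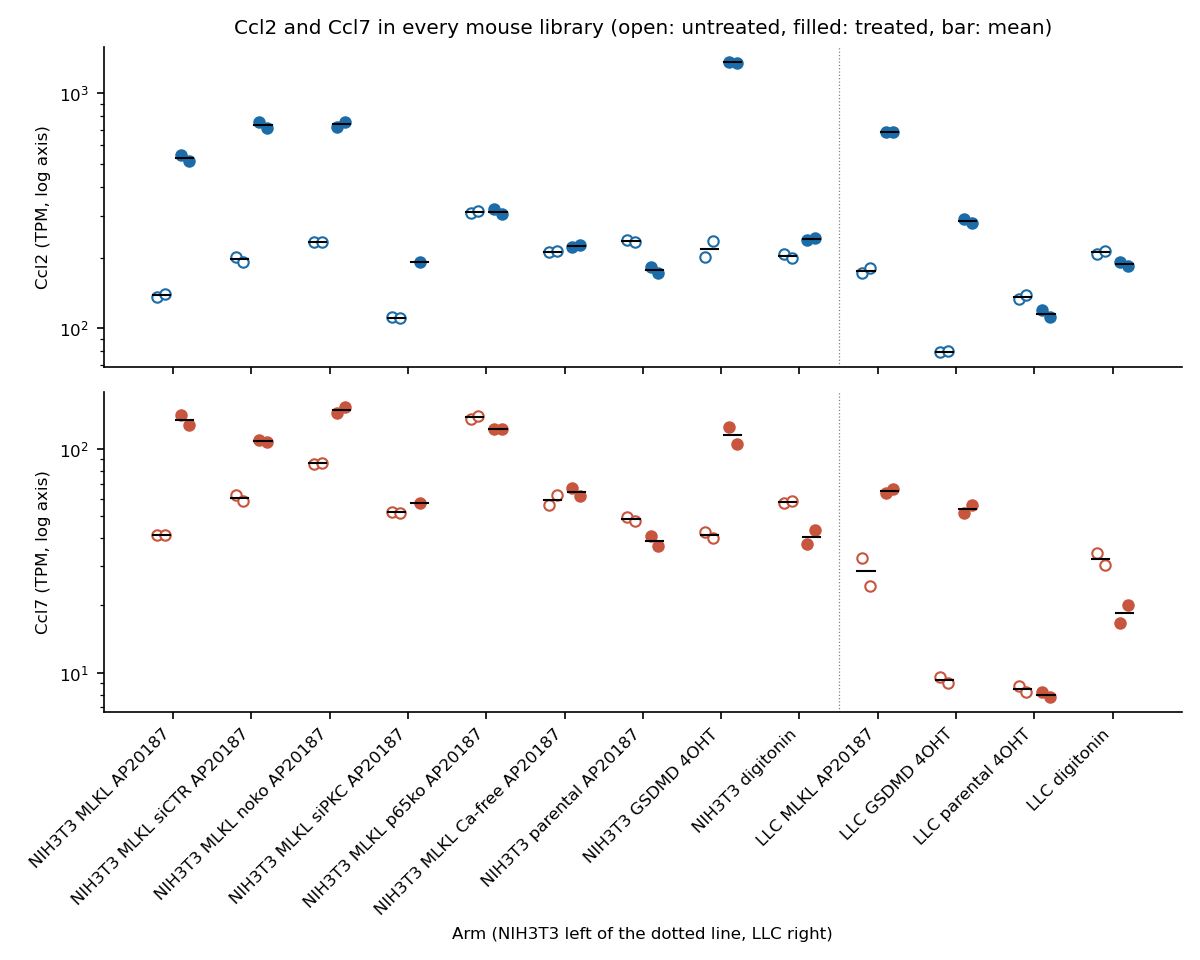
Level of Ccl2 (top) and Ccl7 (bottom) in TPM on a log axis in every mouse library, by arm; open points are untreated and filled points treated libraries, and bars are group means. Ccl2 and Ccl7 lie higher after AP20187 in MLKL cells (apart from the calcium-free and p65ko sets) and after 4OHT in GSDMD cells, and near or below the untreated points after digitonin; the LLC digitonin arm is shown as labelled, and the siPKC group given AP20187 has 1 point.

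Ordered over the 26 mouse groups, Ccl2 ran from 1354 TPM in NIH3T3 GSDMD cells given 4OHT down to 79.7 TPM in untreated LLC GSDMD cells. The next places were held by AP20187-treated noko (737 TPM), siCTR (732 TPM), LLC MLKL (684 TPM) and NIH3T3 MLKL cells (530.2 TPM). Treated noko and siCTR cells overlapped, and in all the libraries of 10 of 25 neighbouring pairs of groups overlapped. Ccl7 ran from 149.7 TPM in noko cells given AP20187 to 7.996 TPM in LLC parental cells given 4OHT, and 14 of its 25 neighbouring pairs overlapped. The second place for Ccl7 was taken by untreated p65ko cells (139 TPM), which overlapped NIH3T3 MLKL cells given AP20187 (135 TPM).

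After dimerization of MLKL, both chemokine transcripts were several-fold higher within 1 h. In NIH3T3 MLKL cells Ccl2 reached 545 and 515 TPM against the 136 and 139.5 TPM of untreated cells, and Ccl7 reached 142 and 129 TPM against 41.2 and 41.3. Treated and untreated libraries did not overlap for either gene. In these bulk libraries more responding cells and more RNA per cell cannot be told apart. The change was 1.93 (SE 0.051, adjusted p = 4.98e-18) for Ccl2, a 3.84-fold ratio of mean TPM, and 1.69 (SE 0.074, adjusted p = 7.51e-14) for Ccl7, a 3.28-fold ratio. In this comparison 15.8% of genes were called higher and 16.5% lower. Set against untreated parental cells instead, the Ccl2 change was 1.17.

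MLKL cells of the siRNA and knockout controls gave the same direction for both genes. In siCTR cells Ccl2 went from 201 and 192 to 751 and 712 TPM (1.89, SE 0.051, adjusted p = 4.12e-18). Ccl7 went from 62.1 and 58.7 to 110.2 and 108 TPM (0.84, SE 0.074, adjusted p = 3.65e-09), where 13.7% of genes were called higher. In noko cells Ccl2 went from 233 and 232 to 721 and 754 TPM (1.66, SE 0.051, adjusted p = 8.82e-17), and Ccl7 from 85.7 and 87.0 to 145 and 155 TPM (0.79, SE 0.074, adjusted p = 1.24e-08), where 10.6% were called higher. No treated library overlapped an untreated one. Centring each library on its median moved the share of genes called higher to 28.8% in siCTR and 27.4% in noko cells, and left both chemokine genes called higher.

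The dimerizer without the MLKL construct did not raise either gene. Parental NIH3T3 cells given AP20187 held Ccl2 at 182 and 172 TPM, below the 237 and 233 TPM of untreated cells (-0.41, SE 0.051, adjusted p = 0.00041), where only 0.287% of genes were called lower. Ccl7 stood at 40.7 and 36.9 TPM, also under both untreated libraries (-0.32, SE 0.074, adjusted p = 0.0894). The MLKL response exceeded the parental one by 2.34 (SE 0.072, adjusted p = 1.92e-16) for Ccl2 and by 2.01 (SE 0.11, adjusted p = 2.95e-12) for Ccl7, and this difference passed for 20.5% of all genes. Fitted on its own 4 libraries, the parental fall of Ccl2 did not pass (adjusted p = 0.148).

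The highest Ccl2 level of the study was in NIH3T3 GSDMD cells given 4OHT. Parental NIH3T3 cells given 4OHT were not analysed, so the agent and the GSDMD fragment cannot be told apart in this line. In NIH3T3 GSDMD cells Ccl2 reached 1363 and 1345 TPM after 4OHT, from 200.5 and 235 TPM, and Ccl7 reached 125 and 105 TPM, from 42.4 and 40.03. Both treated libraries lay far above the untreated ones for each gene. The change was 2.63 (SE 0.051, adjusted p = 8.48e-21) for Ccl2, a 6.22-fold ratio of mean TPM, and 1.46 (SE 0.074, adjusted p = 1.77e-13) for Ccl7, a 2.80-fold ratio. Here 20% of genes were called higher (34.7% after centring) and 58.6% lower (36.9%).

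Both genes were also higher after treatment in LLC cells with either pore protein. Parental LLC cells given AP20187 were not analysed, so the agent and MLKL cannot be told apart in LLC. In LLC MLKL cells Ccl2 went from 172 and 181 to 684 and 684 TPM (1.95, SE 0.040, adjusted p = 6.41e-11), and Ccl7 from 32.5 and 24.4 to 63.9 and 66.5 TPM (1.18, SE 0.12, adjusted p = 4.84e-05). Only 5.48% of genes were called higher in that comparison and 2.08% lower. In LLC GSDMD cells Ccl2 went from 79.1 and 80.3 to 290.4 and 282 TPM (1.83, SE 0.040, adjusted p = 3.51e-12). Ccl7 went from 9.61 and 9.003 to 52.1 and 56.1 TPM (2.42, SE 0.12, adjusted p = 1.79e-09), a 5.81-fold ratio of mean TPM, where 27.9% of genes were called higher and 54% lower. Treated and untreated libraries were separate in each case. Against the untreated parental LLC libraries, the Ccl7 change in MLKL cells was 2.81 and the Ccl2 change in GSDMD cells 1.07.

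4OHT by itself did not raise either gene in LLC cells. Ccl2 was 119 and 112 TPM in treated and 133 and 138 TPM in untreated parental cells (-0.23, SE 0.040, adjusted p = 0.0211), where 0.045% of genes were called lower (0.198% after centring). Ccl7 was 8.22 and 7.77 TPM against 8.71 and 8.21 TPM, and the treated and untreated libraries overlapped (-0.072, adjusted p = 0.885). The GSDMD response exceeded the parental one by 2.06 (SE 0.056, adjusted p = 1.24e-10) for Ccl2 and 2.49 (SE 0.17, adjusted p = 1.03e-07) for Ccl7, where 71.8% of genes passed. The parental fall of Ccl2 was lost when untreated replicate 1 or 2, or treated replicate 2, was left out (highest adjusted p = 0.256).

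Cd14, which fibroblasts also transcribe, and Csf1r, both on the macrophage marker list, moved with several of these results. The summed level of the 8 macrophage markers was 37.0 to 37.3 TPM in untreated and 93.6 to 98.7 TPM in treated NIH3T3 GSDMD cells. In LLC GSDMD cells it was 12.4 to 14.4 and 66.2 to 68.1 TPM, in NIH3T3 MLKL cells 24.6 and 45.6 to 49.9 TPM, and in NIH3T3 cells given digitonin 27.7 to 28.0 and 50.2 to 54.8 TPM. Cd14 alone accounted for 71.9 TPM of the treated NIH3T3 GSDMD sum. Cd14 also went from 6.46 to 30.0 TPM in p65ko cells given AP20187, where neither chemokine gene passed. The marker sum there was 21.3 to 23.4 TPM untreated and 45.7 to 46.6 TPM treated. In siPKC cells Cd14 was 6.60 TPM untreated and 28.0 TPM in the single treated library. Csf1r, the receptor of the macrophage growth factor, was 2.61 TPM untreated and 5.33 TPM treated in NIH3T3 GSDMD cells (0.81, adjusted p = 2.41e-07), 1.18 and 1.92 TPM in NIH3T3 cells given digitonin (0.42, adjusted p = 0.000979), and 0.281 and 1.03 TPM in LLC GSDMD cells (0.67, adjusted p = 0.00107). In siCTR and noko cells given AP20187 Csf1r fell by 0.51 and 0.33 on the log2 scale. The part of these genes in the chemokine results was not tested, and the defining markers Ptprc and Adgre1 stayed at or near 0 as given above.

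**Figure D2:**
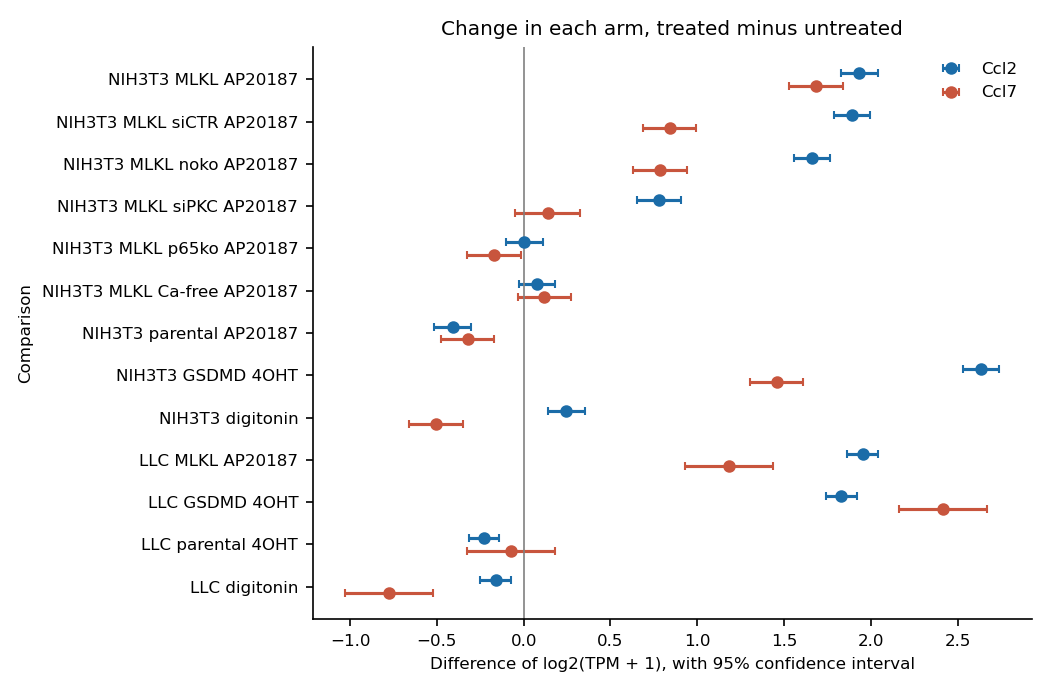
Change of Ccl2 (blue) and Ccl7 (red) in each of 13 mouse arms, as treated minus untreated log2(TPM + 1) with the 95% confidence interval from limma. Arms with an active pore protein in calcium-containing medium lie to the right of 0, from 0.14 to 2.63 apart from p65ko cells, and the digitonin values, with the LLC arm as labelled, lie between -0.77 and 0.25.

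Against its own untreated libraries, digitonin left Ccl2 close to its resting level and lowered Ccl7. In NIH3T3 cells Ccl2 was 238 and 243 TPM after digitonin and 206 and 199 TPM before (0.25, SE 0.050, adjusted p = 0.000171), a 1.19-fold ratio of mean TPM, where 39.3% of all genes were called higher. This small rise did not pass after median centring (0.10, adjusted p = 0.0827) or against the other untreated parental libraries (0.033, adjusted p = 0.56). Ccl7 was 37.8 and 43.6 TPM after digitonin, below the 57.4 and 58.5 TPM of untreated cells (-0.50, SE 0.074, adjusted p = 3.32e-06), where 34.2% of genes were called lower. Centring moved these shares to 31.7% higher and 45.7% lower.

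In the LLC libraries labelled parental and given digitonin, both genes were lower than in their own untreated libraries, whose Gsdmd levels overlapped theirs. Ccl2 was 192 and 183 TPM against 206 and 214 TPM (-0.16, SE 0.040, adjusted p = 0.00511), and without treated replicate 2 the change was -0.13 (adjusted p = 0.0537). Ccl7 was 16.8 and 20.2 TPM against 34.2 and 30.2 TPM (-0.77, SE 0.12, adjusted p = 0.000162), a 0.573-fold ratio of mean TPM. Of all genes, 32.2% were called lower and 20.3% higher. Against the other untreated parental LLC libraries, whose levels of both genes and of Gsdmd were lower, the direction turned to 0.47 for Ccl2 and 1.04 for Ccl7. Against untreated LLC GSDMD cells, in an alternative added after the Gsdmd levels were seen, it turned to 1.23 for Ccl2 and 0.91 for Ccl7. The LLC direction therefore rests on which untreated libraries are used. No digitonin library reached the level of a treated MLKL or GSDMD library of the same line for either gene, leaving aside the calcium-free, siRNA and knockout sets.

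The responses to pore proteins and to digitonin were compared as differences of changes, each against its own untreated libraries. In NIH3T3 the MLKL response exceeded the digitonin response by 1.69 (SE 0.072, adjusted p = 7.35e-14) for Ccl2 and 2.19 (SE 0.11, adjusted p = 4.55e-13) for Ccl7, where 52.9% of genes passed. The GSDMD response exceeded it by 2.39 (SE 0.071, adjusted p = 4.79e-16) and 1.96 (SE 0.11, adjusted p = 1.57e-12), where 65% passed. In LLC, where the digitonin libraries held Gsdmd near the level of GSDMD cells against their labels, the excess of MLKL was 2.11 (SE 0.056, adjusted p = 2.81e-09) for Ccl2 and 1.96 (SE 0.16, adjusted p = 8.53e-06) for Ccl7, where 30.8% passed. That of GSDMD was 1.99 (SE 0.056, adjusted p = 5.23e-10) and 3.19 (SE 0.16, adjusted p = 3.69e-08), where 66% passed. With shares this high, passing these contrasts is not particular to the chemokine genes. All 8 differences kept their sign and passed when treated cells were compared directly with treated cells, where the LLC GSDMD excess was 0.60 for Ccl2 and 1.504 for Ccl7. With untreated LLC GSDMD cells as controls of the LLC digitonin libraries, the MLKL excess was 0.73 for Ccl2, and that of Ccl7 did not pass (0.27, adjusted p = 0.182). MLKL, GSDMD and digitonin were applied for 1, 2.5 and 3 h, so agent and time cannot be told apart.

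**Figure D3:**
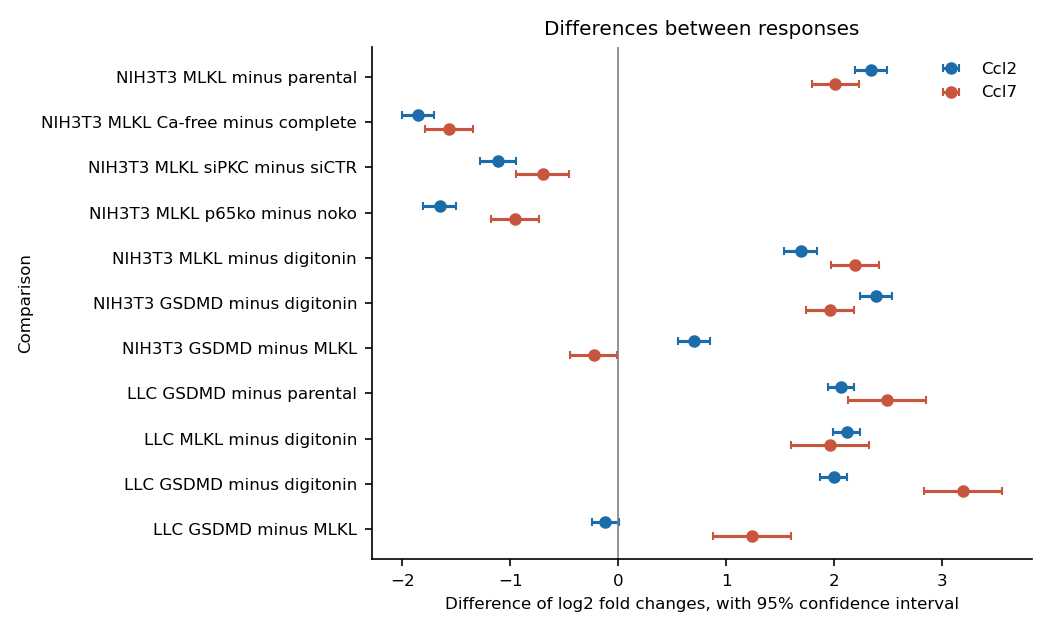
Differences between 2 responses for Ccl2 (blue) and Ccl7 (red), as a difference of log2 fold changes with its 95% confidence interval from limma. The 4 contrasts of a pore protein with digitonin lie between 1.69 and 3.19, and the contrasts of calcium-free medium, siPKC and p65ko with their controls lie between -1.86 and -0.70.

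Without calcium in the medium, neither chemokine transcript passed the test after MLKL dimerization. Ccl2 was 221 and 226 TPM with AP20187 and 210.2 and 213 TPM without (0.077, interval -0.029 to 0.18, adjusted p = 0.443). Ccl7 was 67.3 and 61.5 TPM against 56.0 and 62.5 TPM, with overlapping libraries (0.12, interval -0.035 to 0.27, adjusted p = 0.409). Of all genes 5.69% passed in either direction. The calcium-free response minus that in complete medium was -1.86 (SE 0.072, adjusted p = 1.23e-14) for Ccl2 and -1.57 (SE 0.11, adjusted p = 2.35e-10) for Ccl7, where 21.9% of genes passed. Untreated cells in calcium-free medium held more of both transcripts than in complete medium, by 0.61 (adjusted p = 4.92e-09) for Ccl2 and 0.51 (adjusted p = 1.29e-05) for Ccl7, where 36.3% passed.

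After siPKC the Ccl2 response was smaller, and Ccl7 did not pass. Ccl2 was 191 TPM in the single siPKC library given AP20187, above the untreated 112 and 110.4 TPM (0.78, SE 0.062, adjusted p = 1.71e-09), where 10.5% of genes were called higher (19.0% after centring). Ccl7 was 57.6 TPM in that library and 52.5 and 51.9 TPM in untreated ones (0.14, SE 0.091, adjusted p = 0.219), and after centring the change was 0.26 and passed. The difference between the siPKC and siCTR responses was -1.11 (SE 0.080, adjusted p = 1.27e-08) for Ccl2 and -0.70 (SE 0.12, adjusted p = 0.000718) for Ccl7, where 8.29% of genes passed. Untreated siPKC cells also held less Ccl2 than siCTR cells (-0.82, adjusted p = 3.14e-11) and less Ccl7 (-0.21, adjusted p = 0.0276), where 45.6% passed. The single treated library takes its spread from the other groups.

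In p65ko cells both genes were high at rest, and neither passed the test after MLKL dimerization. Ccl2 was 321 and 306 TPM with AP20187 and 309.6 and 315 TPM without, with overlapping libraries (0.0041, interval -0.10 to 0.11, adjusted p = 0.951). Ccl7 was 123 and 123 TPM against 136 and 141 TPM (-0.17, adjusted p = 0.0526). In these cells 59.4% of genes passed in either direction, of which 15.1% were higher, or 53.1% after centring, where the Ccl2 change was 0.20 (adjusted p = 0.00505). The difference between the p65ko and noko responses was -1.66 (SE 0.072, adjusted p = 1.70e-12) for Ccl2 and -0.96 (SE 0.11, adjusted p = 6.10e-06) for Ccl7, where 4.1% of genes passed. Untreated p65ko cells stood above noko cells by 0.42 (adjusted p = 7.93e-07) for Ccl2 and 0.68 (adjusted p = 2.59e-07) for Ccl7, where 47% passed.

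The genes did not change by the same amounts in treated MLKL and GSDMD cells. In NIH3T3 the GSDMD change of Ccl2 exceeded the MLKL change by 0.70 (adjusted p = 3.53e-08), while for Ccl7 the difference was -0.23 (interval -0.45 to -0.0095, adjusted p = 0.0632), where 64.6% of genes passed. In LLC the GSDMD change of Ccl7 exceeded the MLKL change by 1.23 (adjusted p = 3.44e-05), while for Ccl2 the difference was -0.12 (interval -0.25 to 0.0024, adjusted p = 0.0742), where 69.8% passed.

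The lines were compared in differences added after these values were seen. The MLKL response of Ccl2 in LLC minus that in NIH3T3 was 0.018 (interval -0.12 to 0.16, adjusted p = 0.919), and that of Ccl7 -0.50 (adjusted p = 0.0114), where 12.9% of genes passed. For Ccl7 this difference was -0.30 without untreated LLC MLKL replicate 1 and -0.43 without treated NIH3T3 MLKL replicate 1, and did not pass in either case. The GSDMD response in LLC was smaller for Ccl2 (-0.80, adjusted p = 3.36e-11) and larger for Ccl7 (0.96, adjusted p = 5.32e-07), where 60.5% passed. The digitonin response, which rests on the LLC set that went against its labels, differed by -0.41 (adjusted p = 8.54e-06) for Ccl2 and -0.27 (adjusted p = 0.0920) for Ccl7, where 55.4% passed. With untreated LLC GSDMD cells as its LLC controls these differences turned to 0.98 and 1.42.

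The ratio of Ccl2 to Ccl7 within a library, which does not depend on the scaling of that library, shows where the genes parted. In NIH3T3 it lay between 2.13 (untreated siPKC) and 11.8 (GSDMD with 4OHT) over group means. In LLC it lay between 5.30 (GSDMD with 4OHT) and 16.1 (untreated parental). The other untreated LLC sets held mean ratios of 6.35 to 8.57, so resting LLC sets differed widely. The ratio was 4.73 and 5.88 in untreated and 10.9 and 12.8 in treated NIH3T3 GSDMD libraries. In siCTR cells the mean ratio was 3.25 untreated and 6.72 treated, in noko cells 2.69 and 4.93, and in the original MLKL cells 3.35 and 3.93. Digitonin gave a higher ratio too, 5.58 and 6.29 against 3.39 and 3.60 in NIH3T3 and 9.09 and 11.5 against 6.03 and 7.09 in the LLC libraries labelled parental, without overlap. In LLC MLKL cells the mean ratio rose as well, from 6.35 to 10.5. LLC GSDMD cells went the other way, from 8.23 and 8.91 untreated to 5.02 and 5.58 treated. Unequal ratios show an unequal change of the genes and do not tell which of them moved.

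**Figure D4:**
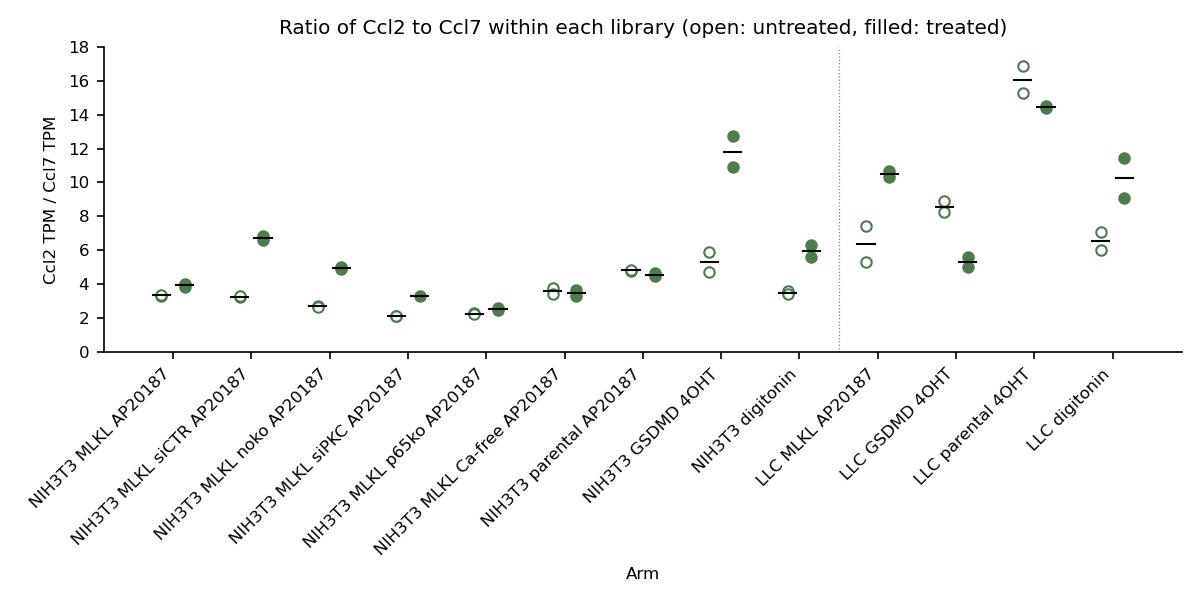
Ratio of Ccl2 TPM to Ccl7 TPM in every mouse library by arm, with open points untreated, filled points treated and bars for group means; NIH3T3 arms stand left of the dotted line. The treated NIH3T3 GSDMD libraries lie at 10.9 and 12.8 above their untreated ones, and the treated LLC GSDMD libraries at 5.02 and 5.58 below theirs.

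The other CCR2 ligand genes of the cluster were low. Ccl8 lay between 1.31 and 9.90 TPM in NIH3T3 libraries and at most at 1.32 TPM in LLC, Ccl11 at most at 1.06 TPM and Ccl12 at most at 0.277 TPM in any mouse library. Ccl8 was 2.08 TPM after digitonin and 3.50 TPM before in NIH3T3 (-0.53, adjusted p = 0.0310), its only change past the threshold among the treated NIH3T3 groups. Of 8 chemokine receptor and decoy receptor genes in the table, only Ackr3, a scavenger of CXCL12, was tested, and Ccr2 itself stayed at or below 0.281 TPM. Ackr3 rose in NIH3T3 cells after MLKL dimerization (0.29, adjusted p = 6.41e-07), where 15.8% of all genes were called higher. After digitonin in NIH3T3 it rose by 0.31 (adjusted p = 3.02e-08), where 39.3% were. It was also called higher after AP20187 in siCTR, noko and p65ko cells, where 13.7%, 10.6% and 8.99% were. It did not pass in NIH3T3 GSDMD cells (0.035) or in any LLC arm.

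Of 8 genes for other monocyte attractants and growth factors, 4 of 6 tested rose in NIH3T3 MLKL cells, namely Csf1, Csf2, Il6 and Spp1. In NIH3T3 GSDMD cells 3 of 5 rose. In NIH3T3 cells given digitonin 3 of 6 rose and 3 fell, among them Csf1, the macrophage growth factor. Csf1 was also called lower after AP20187 in siCTR, noko and p65ko cells, where 51.8%, 55.5% and 50.4% of all genes were called lower. In siPKC cells, with 1 treated library, Csf1 was lower as well. In calcium-free medium Csf1 was called higher, where 2.27% of genes were. In LLC, 2 of 5 listed genes tested rose and 1 fell with MLKL, and 1 of 5 rose and 4 fell with GSDMD. Of 4 tested with LLC digitonin, 2 fell. Of all genes, 15.8% were called higher in NIH3T3 MLKL cells, 20% in NIH3T3 GSDMD cells and 39.3% with digitonin in NIH3T3 (34.2% lower), and in LLC 5.48% higher and 2.08% lower with MLKL, 27.9% and 54% with GSDMD and 32.2% lower with digitonin. Their median change was 0.58 in NIH3T3 MLKL cells against -0.022 over all genes, and -1.05 in LLC GSDMD cells against -0.25.

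Most genes of NF-kB input and feedback were higher under these agents, and a few were not. Of 10 tested, 6 rose in NIH3T3 MLKL, 9 in NIH3T3 GSDMD and 8 in digitonin-treated NIH3T3 cells, with 1, Bcl3, lower under digitonin. In LLC 10 rose with MLKL, 8 with GSDMD (1, Nfkbie, fell) and 9 in the digitonin libraries labelled parental, beside the shares of all genes just given and 20.3% called higher with digitonin in LLC. The list's median change under digitonin was 0.85 in NIH3T3 and 0.90 in LLC, against 0.015 and -0.056 over all genes. Of 6 mRNA decay genes, 6 rose in each NIH3T3 arm of these 3, and in LLC 5 rose with MLKL, 6 with GSDMD and 5 with digitonin. These lists were chosen with results of the same data known, and their counts are descriptions.

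Nfkbia, the NF-kB inhibitor that NF-kB itself induces, went from 46.8 to 249 TPM in NIH3T3 MLKL cells (2.39, adjusted p = 1.30e-22), and from 34.4 to 83.2 TPM with digitonin (1.25, adjusted p = 4.70e-18). In the LLC libraries labelled parental, digitonin gave 90.3 against 34.6 TPM (1.36, adjusted p = 3.33e-10). Nfkbia rose under digitonin in both lines while Ccl7 fell against the same untreated libraries. Zfp36, the decay factor tristetraprolin, went from 11.9 to 119 TPM with digitonin in NIH3T3 (3.23) and from 3.42 to 10.3 TPM in LLC (1.35, adjusted p = 1.11e-08). It also rose with MLKL in NIH3T3, from 11.6 to 288 TPM (4.52, adjusted p = 3.52e-19), where both chemokine transcripts rose. Nfkbiz, a nuclear cofactor of NF-kB, rose by 2.03 and 1.93 with digitonin in NIH3T3 and LLC. What part Nfkbia, Nfkbiz or Zfp36 had in the chemokine changes was not tested.

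In p65ko cells given AP20187, Nfkbia rose from 45.4 to 75.8 TPM (0.73, adjusted p = 3.04e-13), Nfkbiz from 7.04 to 32.3 TPM (2.05) and Zfp36 from 13.1 to 163 TPM (3.54), while Ccl2 did not pass. Of the 10 listed NF-kB genes, 4 rose there and 3 fell (Nfkbie, Tnfaip3 and Bcl3), where 8.99% of all genes were called higher and 50.4% lower. The p65ko response was smaller than the noko response for 8 of these 10, Nfkbia and Nfkbiz among them. That of Zfp36 was smaller too, where 1.76% of all genes were called lower. In calcium-free medium Nfkbia fell by 0.87 (adjusted p = 5.39e-13) on the log2 scale, where 3.42% of all genes were called lower. Nfkbiz was called higher in that medium, where 2.27% of genes were. Zfp36 there was 35.5 TPM with and 45.1 TPM without AP20187 (adjusted p = 0.0578). The part of these genes in the chemokine results was not tested here either.

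**Figure D5:**
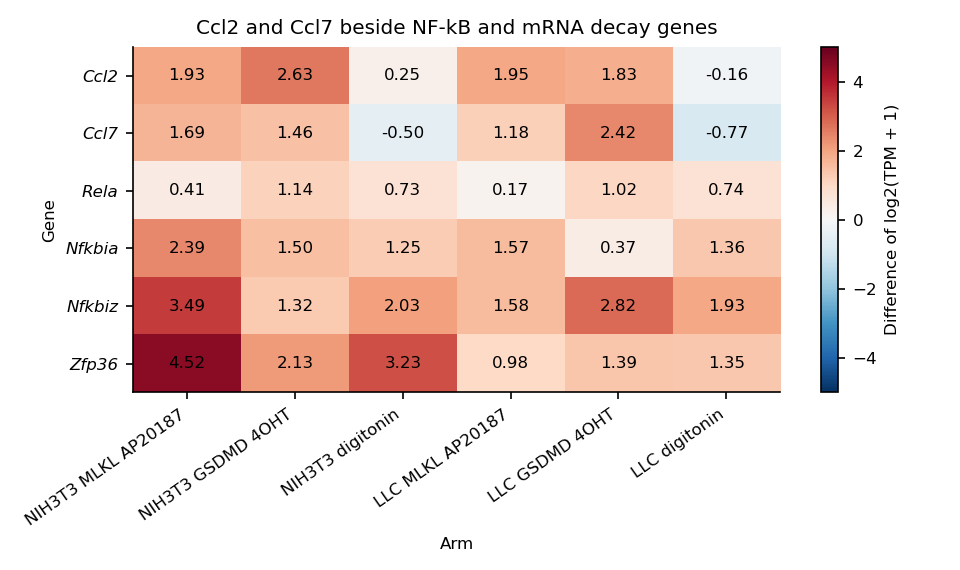
Change of Ccl2 and Ccl7 and of 4 NF-kB and mRNA decay genes (rows) in 6 arms (columns), as treated minus untreated log2(TPM + 1), printed in each cell and coloured from blue (lower) to red (higher). The LLC digitonin arm is shown as labelled. Rela, Nfkbia, Nfkbiz and Zfp36 are above 0 in all 6 arms, and Ccl7 is below 0 in the 2 digitonin arms.

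Genes most like each chemokine were ranked by Pearson correlation among 10979 genes with at least 5 TPM in some mouse group. Over the 26 group means, which share lines and scaling, Ccl2 was closest to Cxcl10 (r = 0.85), Relb (0.82), Cxcl1 (0.82), Nfkb1 (0.79) and Lif (0.79), and Ccl7 ranked 19 (0.73). Over the changes of the 13 arms, Ccl2 was closest to Tnfaip2 (0.91), Plau (0.91), Ccl7 (0.87), Cxcl1 (0.86) and Znrf1 (0.85). The changes of Znrf1 were small in every arm (-0.13 to 0.32). Plau, the urokinase gene, changed by 1.45 with MLKL, 1.63 with GSDMD and 0.22 with digitonin in NIH3T3. Cxcl1, a neutrophil chemokine, rose by 3.91 and 3.29 with digitonin in NIH3T3 and LLC.

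Ccl7 was closest over group means to Rragc (0.85), Thbd (0.85), Fgfrl1 (0.83), Mid1ip1 (0.83) and Runx2 (0.83), with Ccl2 at rank 180. Over arm changes it was closest to Prl2c4 (0.87), Gm5801 (0.87), Ccl2 (0.87), Rpl22l1 (0.82) and Gm11974 (0.81). The changes of Gm5801 (-0.15 to 0.27) and Rpl22l1 (-0.12 to 0.31) were small in every arm. Prl2c4 was too low to be tested in noko, p65ko and calcium-free cells. In LLC, Prl2c4 changed by -1.87 with digitonin (adjusted p = 0.0330) and by 1.56 with GSDMD (adjusted p = 0.0464), and in NIH3T3 it did not pass with MLKL (0.67) or GSDMD (1.23). With a pseudocount of 0.1 in place of 1, the 5 closest genes over arms shared 4 for Ccl2 and 5 for Ccl7, and over group means 5 and 3. Without the LLC digitonin set, they shared 4 for Ccl2 and 3 for Ccl7 over the remaining 12 arms, and 5 and 4 over the remaining 24 group means.

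In the human lines CCL2 was nearly absent. HT29 cells held 0 and 0.238 TPM untreated and 0 and 0 TPM with digitonin, and BxPC3 cells 0.582 and 0.113 TPM untreated and 0.130 and 0.133 TPM with digitonin. No library reached 1 TPM, the filter for testing, so no change was computed, and with TPM alone a listed 0 gives no upper limit.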

How the data were processed

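Polyadenylated RNA was measured in 59 libraries in 30 groups taken from the labels. The authors deposited TPM for each gene, a unit inferred from the values, whose totals per mouse library lay between 999910 and 999989. Per the submitters' processing notes the authors used Salmon, with mm10 and hg19 as builds. The Salmon version and index, and how transcripts were combined, are not stated in what was used. Depth cannot be recovered from TPM, and precision was judged from replicate spread alone.

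From these values log2(TPM + 1) was fitted per line with limma (version 3.58.1, trended variance, R 4.3.3), with 1 mean per group and no replicate block, and in a joint mouse model where lines were compared. Genes with 1 TPM or more in at least 2 libraries of a comparison were tested, with Benjamini-Hochberg adjustment over all of them and a threshold of 0.05. The comparisons were 15 changes on treatment, 12 differences between responses, 11 resting differences and 3 differences added after seeing the data. The design had named a count test first, which TPM do not allow. Differences between responses share untreated libraries with the changes they are built from. The fit was tested on simulated data.

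Both genes were reported in every library and comparison, with the listed ligand, receptor, NF-kB, decay and marker genes, and the 5 genes most correlated with each. Members and lists were chosen with earlier results of these data known. Alternatives were a pseudocount of 0.1, quantile normalization, median centring, no filter, a fit on each comparison's own libraries, a replicate block, leaving out each library and, added after seeing the data, parental untreated or LLC GSDMD untreated libraries as controls and leaving out the LLC digitonin set. Positions came from GENCODE vM21. The values were read with data.table (1.17.8), pandas 2.3.3 and numpy 2.4.6, and figures drawn with matplotlib 3.10.9 in Python 3.11.15.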

Additional observations from a re-analysis of the deposited data

Results flagged for a closer look

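These are the differences between responses to the same treatment that passed limma's test (Benjamini-Hochberg adjusted), as differences of log2(TPM + 1) changes, with 2 libraries a group except 1 for treated siPKC cells. In NIH3T3 cells given AP20187, MLKL minus parental cells gave 2.34 for Ccl2 (adjusted p = 1.92e-16) and 2.01 for Ccl7 (adjusted p = 2.95e-12). Calcium-free minus complete medium gave -1.86 for Ccl2 (adjusted p = 1.23e-14) and -1.57 for Ccl7 (adjusted p = 2.35e-10). The siPKC response minus the siCTR response was -1.11 for Ccl2 (adjusted p = 1.27e-08) and -0.70 for Ccl7 (adjusted p = 0.000718). For p65ko minus noko cells the values were -1.66 for Ccl2 (adjusted p = 1.70e-12) and -0.96 for Ccl7 (adjusted p = 6.10e-06). In LLC cells given 4OHT, GSDMD minus parental cells gave 2.06 for Ccl2 (adjusted p = 1.24e-10) and 2.49 for Ccl7 (adjusted p = 1.03e-07).

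Of the differences between lines, added after the data were seen, LLC minus NIH3T3 gave -0.50 for Ccl7 with MLKL (adjusted p = 0.0114). With GSDMD it gave -0.80 for Ccl2 (adjusted p = 3.36e-11) and 0.96 for Ccl7 (adjusted p = 5.32e-07), in opposite directions. With digitonin it gave -0.41 for Ccl2 (adjusted p = 8.54e-06), on LLC libraries labelled parental whose Gsdmd level went against that label.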

How the results depend on the processing

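Of 890 values recomputed under alternatives for 74 results, 846 kept direction and call, 23 lost a call, 14 gained one and 7 reversed. The rise of both genes with MLKL (original, siCTR and noko) and GSDMD, and the pore minus digitonin differences, kept both in every alternative run but 1, given below. Where no cause is named below, the cause was not tested. Replicate numbers showed no strong pairing of the libraries: same-numbered deviations correlated at -0.051 to 0.12 over 13 arms of at most 2 pairs. With so few pairs, these values cannot show that the libraries were handled separately. With the replicate block, the Ccl7 change in p65ko cells passed (-0.17), the Ccl2 fall in LLC parental cells did not (-0.23), and of resting differences, Ccl2 in GSDMD cells passed (-0.19) while Ccl7 in GSDMD cells (-0.20), the NIH3T3 digitonin set (0.14) and siPKC cells (-0.23) did not.

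After median centring Ccl7 in siPKC (0.26), Ccl2 in p65ko (0.20) and resting Ccl2 in GSDMD cells (-0.15) passed, Ccl2 under NIH3T3 digitonin did not (0.10), and resting Ccl2 of the NIH3T3 digitonin set reversed (0.17). With parental controls, Ccl2 under NIH3T3 digitonin was 0.033, and LLC digitonin reversed to 0.47 for Ccl2 and 1.04 for Ccl7. With untreated LLC GSDMD controls for the LLC digitonin libraries, chosen after seeing the data, LLC digitonin reversed to 1.23 for Ccl2 and 0.91 for Ccl7, the digitonin difference between lines reversed to 0.98 for Ccl2 and 1.42 for Ccl7, and the LLC MLKL minus digitonin difference of Ccl7 did not pass (0.27). On the libraries of the comparison alone, which leaves fewer samples, p65ko Ccl7 (-0.17) and the LLC GSDMD minus MLKL difference of Ccl2 (-0.12) passed, and Ccl2 in NIH3T3 parental (-0.41) and LLC parental cells (-0.23) and the MLKL difference of Ccl7 between lines (-0.50) did not. Without the filter resting Ccl7 in siPKC cells did not pass (-0.21).

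Leaving out 1 library each, with a lone library taken to vary like the other groups, changed a call in these ranges: Ccl2 in LLC parental cells -0.28 to -0.18, Ccl2 under LLC digitonin -0.20 to -0.13, Ccl7 NIH3T3 GSDMD minus MLKL -0.35 to -0.11, Ccl2 LLC GSDMD minus MLKL -0.16 to -0.084. For resting levels the ranges were -0.26 to -0.21 for Ccl7 in NIH3T3 MLKL cells, -0.23 to 0.0027 for Ccl2 and -0.28 to -0.20 for Ccl7 in GSDMD cells, and -0.25 to -0.17 for Ccl7 in siPKC cells. Between lines they were -0.70 to -0.30 for Ccl7 with MLKL and -0.40 to -0.14 for Ccl7 with digitonin.

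Counts of genes past the threshold moved by over 1.5 times in some settings. The main count and its lowest and highest were 844, 373 and 6866 for LLC MLKL, 3546, 2605 and 7317 for LLC MLKL minus digitonin, and 96, 16 and 139 for LLC parental 4OHT. They were 3757, 2087 and 6669 for NIH3T3 MLKL, 659, 75 and 841 for calcium-free MLKL, and 35, 5 and 50 for NIH3T3 parental AP20187. For differences they were 501, 277 and 768 for p65ko minus noko, 969, 54 and 1141 for siPKC minus siCTR, and 1599, 926 and 1829 for MLKL between lines, and for resting siPKC cells 5261, 3065 and 5350. TPM give no depth, so its limit on these values is unknown.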
